A study of Mus musculus with 6 samples.

Results

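The subunits of the glutamate and GABA receptors were followed in bulk RNA-seq of adult mouse optic nerve. They were taken by gene symbol and comprised 47 of the 24062 genes counted. Of the 47, 26 encode glutamate receptors, with 4 AMPA, 5 kainate, 7 NMDA, 2 delta and 8 metabotropic subunits. The other 21 encode GABA receptors, with 16 GABA-A, 3 rho-type GABA-A and 2 GABA-B subunits. The 3 mutant libraries came from mice with the PlpCreERT2 transgene and both Nf1 alleles floxed (Nf1flox/flox), in which tamoxifen activates a Cre recombinase driven by the Plp promoter, active in oligodendrocytes. The 3 control libraries came from mice without the Cre: control library 1 was Nf1flox/flox and control libraries 2 and 3 were Nf1flox/+. All were given tamoxifen as adults over 2 months old, and nerves were collected 1 month later. The design sets nerves with Nf1, the gene of the Ras inhibitor neurofibromin, targeted in mature oligodendrocytes against nerves without Cre.

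AMPA, kainate and NMDA receptors are cation channels opened by glutamate, and each is assembled from several subunits, whereas metabotropic glutamate receptors act through G proteins. GABA-A receptors are chloride channels built from a mix of subunits, and GABA-B receptors are G protein-coupled pairs of Gabbr1 and Gabbr2 proteins. The optic nerve carries the axons of retinal ganglion cells among oligodendrocytes, their precursors and astrocytes, and these glial cells are known to express several of the receptors. Neuronal cell bodies, where most receptor transcripts of the brain are found, lie outside the nerve.

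Mutant libraries 1, 2 and 3 held 19012262, 13948624 and 13555756 counts, and control libraries 1, 2 and 3 held 21307855, 23662698 and 22872063. Values are given in this library order. Levels are given as CPM, counts scaled to the library size after TMM scaling. Nf1 itself had 304, 226.0 and 433 CPM in the mutant libraries and 394, 400.0 and 337 CPM in the control libraries, with overlapping ranges. These values are sums over every exon and so check nothing of the recombination. The summed level of 10 mature oligodendrocyte markers was 5425, 33820 and 4662 CPM in the mutant libraries, against 26040, 26700 and 25880 CPM in the control libraries, so that mutant library 2 stood apart from the other two mutant libraries. Xist, transcribed in females, had 38466, 30602 and 51760 counts in the mutant libraries and 58, 72727 and 34 in the control libraries, and Y-linked genes had 0, 0 and 0 counts in the mutant libraries and 6275, 0 and 7213 in the control libraries. Control libraries 1 and 3 thus showed the male pattern and the others the female one. The labels do not say that each library is a separate animal, so a p-value here is read against a spread that may be technical in part.

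Receptor subunit transcripts were more abundant in mutant than in control nerves across most classes. The 47 subunits summed to 7074, 2497 and 6158 CPM in the mutant libraries, against 1684, 1632 and 1924 CPM in the control libraries. In all, 15 subunits rose and 0 fell at a Benjamini-Hochberg adjusted p under 0.05 in edgeR's quasi-likelihood test over all 16315 genes tested, of which 3.29% passed, 2.95% rising and 0.337% falling. Among those that rose were the AMPA subunits Gria2 and Gria3, the kainate subunit Grik2, the NMDA subunits Grin1, Grin2a and Grin2b, the metabotropic receptors Grm2, Grm4 and Grm5, and the GABA-A subunits Gabra4, Gabrb2, Gabrd and Gabrg3. The 15 log2 fold changes ran from 1.41 to 4.93. At an unadjusted p under 0.05, 28 subunits were higher and 1, Gabrr2, was lower, beside 19.2% of all genes tested (11.2% higher and 8.02% lower). DESeq2 called 23 higher and Gabrr2 lower, beside 7.13% higher and 2.95% lower of all genes, and limma-voom called 11 higher and 0 lower, beside 2.56% higher and 0.539% lower.

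The filter on low counts was passed by 43 of the 47, and 2 of these, Gabrd and Grm2, passed it through the mutant libraries and not through the control libraries, whereas 1, Gabrr2, passed it only through the control libraries. Each of these 3 passed only through the group in which it was high, so its p-values are given as a description. The 43 had a median log2 fold change of 1.48 and 38 positive fold changes, beside a median of -0.0017 and 49.9% positive fold changes over all genes tested. In 22 subunits every mutant library was above every control library, which held for 12.5% of all genes tested, and in 1, Gabrr2, every mutant library was below, which held for 11.5%. The groups did not overlap in 24.0% of all genes tested. The remaining 20 tested subunits overlapped between groups. Gabra6, Gabrp, Gabrr3 and Grm6 did not pass the filter, and none had more than 12 counts in any library.

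The number of subunits called changed with the library left out. With mutant library 2 left out, 33 subunits rose and Gabrr2 fell, beside 13.2% higher and 13.8% lower among all genes tested in that fit. With mutant library 1 left out 4 rose (Gabra4, Grin2a, Grm4 and Grm5), beside 0.953% of all genes, and with mutant library 3 left out 4 rose (Gabrd, Grin2a, Grm4 and Grm5), beside 1.15%. Without control library 1 none rose in edgeR. In that fit 25 subunits had an unadjusted p under 0.05 in either direction, beside 2089 of the 16660 genes tested. Without control library 2 only Grin2a and Grm4 rose, and without control library 3 only Grm4 did. At the adjusted threshold 0.294%, 0.458% and 0.669% of all genes rose in these 3 fits. With Xist (log2 CPM) added as a covariate, 0 rose in edgeR. There 22 subunits had an unadjusted p under 0.05 in either direction, beside 1299 of the 16315 genes tested. The 15 that rose without the covariate had edgeR adjusted p of 0.267 to 0.521 with it. Their log2 fold changes in that fit, 1.42 to 5.05, were close to those without the covariate, as for Gria2 (2.77 against 2.61) and Gria3 (2.25 against 2.26), and the median of the 43 was 1.58 against 1.48. Relative to the control mean, the median over tested subunits was 1.67, 0.38 and 1.72 on the log2 scale (CPM plus 0.5) in mutant libraries 1, 2 and 3, and -0.01, -0.13 and 0.08 in the control libraries. Mutant library 2 had the lowest value of the 3 mutant libraries in 36 of the 43 tested subunits and in 14 of the 15 that rose.

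**Figure D1:**
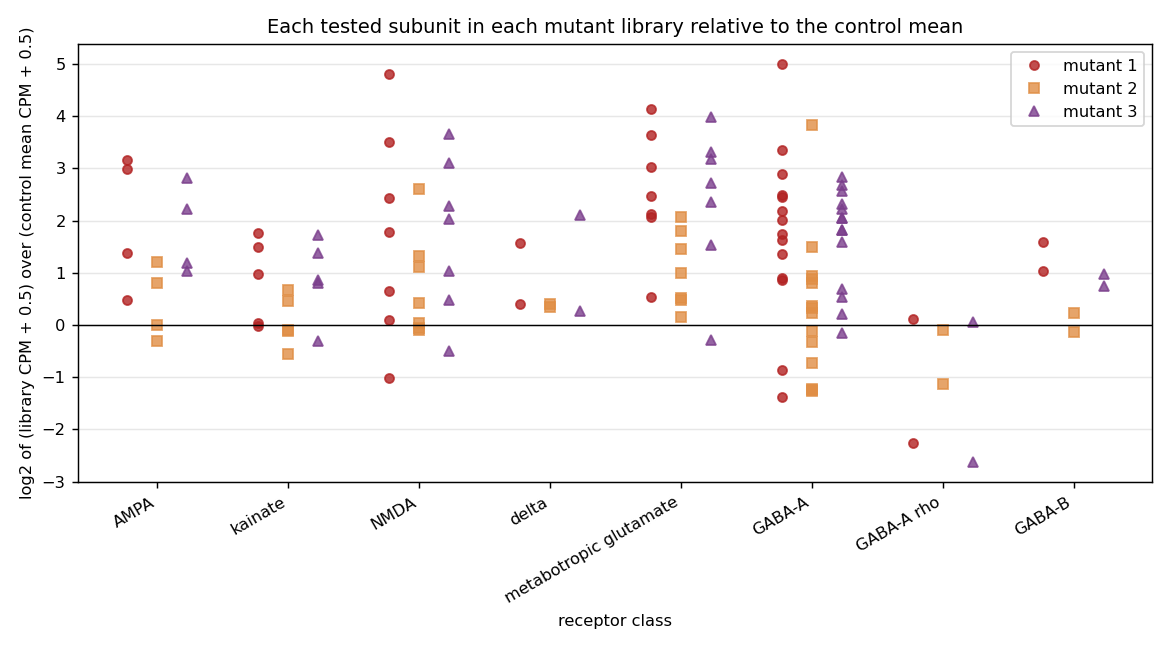
Each mark is 1 of the 43 tested subunits in 1 mutant library (circles mutant 1, squares mutant 2, triangles mutant 3), placed by receptor class on the horizontal axis and by the log2 of its CPM over the control mean, both plus 0.5, on the vertical axis. Marks of mutant libraries 1 and 3 lie mostly above 0 (medians 1.67 and 1.72) and those of mutant library 2 nearer to it (median 0.38), and the lowest marks are those of Gabrr2 in mutant libraries 1 and 3.

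Some lists of neuronal markers were higher in every mutant library, as the receptor subunits in sum were, and others were not. The 10 pan-neuronal markers summed to 1272 to 4829 CPM in the mutant libraries, against 570.3 to 1059 CPM in the control libraries, and 2 of them rose: Rbfox3, which encodes the neuronal nuclear protein NeuN, and the synaptic vesicle gene Syt1. Of 13 markers of striatal projection neurons 11 rose, and their sum was 1841 to 2779 CPM in the mutant libraries, against 208 to 276 CPM in the control libraries. They include the dopamine receptor genes Drd1a and Drd2, the adenosine receptor gene Adora2a and the G protein gene Gng7, with log2 fold changes of 4.33, 4.97, 4.35 and 2.81 (edgeR adjusted p = 0.00143 for each). With any 1 library left out, 10 to 13 of the 13 striatal markers rose. The same held for 0 to 33 of the 43 tested receptor subunits and 0 to 8 of the 10 pan-neuronal markers. Over all genes tested, 0.294% to 13.2% rose in these fits. With the Xist covariate, 0 striatal markers, 0 pan-neuronal markers and 0 subunits rose in edgeR. Interneuron markers summed to 589.6 to 1937 CPM in the mutant libraries, against 293 to 506.6 CPM in the control libraries, and 3 of 10 rose, Gad1, Gad2 and Dlx5. Gad1 and Gad2, which striatal projection neurons also express, carried most of this sum. Leaving them out, a choice made after the values were seen, the other 8 summed to 185, 41.3 and 241 CPM in the mutant libraries, against 83.5, 73.7 and 150.1 CPM in the control libraries, so that mutant library 2 lay below every control library. Pvalb, Sst and Vip, which mark classes of interneurons, overlapped between groups, with log2 fold changes of 0.13, 0.12 and 0.0028. These were the lowest values of the list. All 10 interneuron markers had positive fold changes, with a median log2 fold change of 1.68. Of the 10, 6 had an unadjusted p under 0.05 and 5 were called higher by DESeq2. Of 7 tested markers of cortical excitatory neurons 0 rose in edgeR, with 3 at an unadjusted p under 0.05 and 3 called higher by DESeq2. Their sum was 103 to 434 CPM in the mutant libraries, against 92.8 to 139 CPM in the control libraries, and mutant library 2 lay within the control range. Of 6 tested markers of retinal ganglion cells and retina 0 passed in edgeR, with 1 at an unadjusted p under 0.05 and 0 in DESeq2, and their sum was 16.1 to 30.2 CPM in the mutant libraries, against 30.8 to 38.3 CPM in the control libraries. No marker of these 5 lists was at 0 in all control libraries. Their part in the results for the receptor subunits was not tested. In bulk nerve, a change in the number of cells of a type and a change in RNA per cell cannot be told apart. Whether tissue beside the nerve entered a sample was not tested and cannot be told from the labels or counts.

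**Figure D2:**
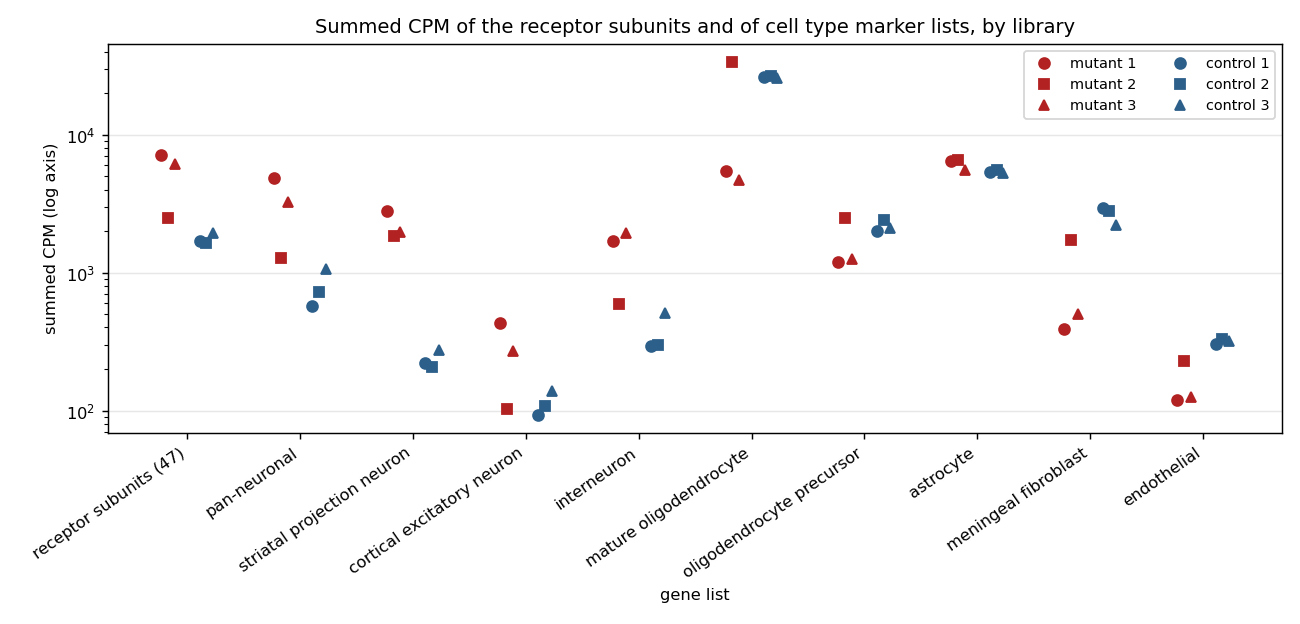
Summed CPM on a log axis of the 47 receptor subunits and of 9 cell type marker lists, with one mark per library, mutant libraries in red left of control libraries in blue. Pan-neuronal, striatal and interneuron sums were higher in every mutant library than in any control library, the interneuron sum only with Gad1 and Gad2 in it, whereas mature oligodendrocyte sums were 4662 and 5425 CPM in mutant libraries 3 and 1 and 33820 CPM in mutant library 2.

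Of the 4 AMPA subunits, which carry fast excitatory transmission, 2 rose and 0 fell in edgeR and in DESeq2, with a median log2 fold change of 1.59. Gria2 (chr3:80684936-80802791, minus strand; positions are on mm10), whose edited protein makes the channel impermeable to calcium, had 1534, 397 and 1209 CPM in the mutant libraries, against 146, 155 and 215 CPM in the control libraries. Its log2 fold change was 2.61 (edgeR adjusted p = 0.0246, SE 0.48). Gria3 (chrX:41401301-41678601, plus strand) had 383, 84.3 and 226 CPM in the mutant libraries, against 46.7, 49.3 and 48.4 CPM in the control libraries, a log2 fold change of 2.26 (edgeR adjusted p = 0.0377, SE 0.47). Both were above the control range in every mutant library, with mutant library 2 closest to it. Gria1 had 476, 183 and 373 CPM in the mutant libraries, against 158, 197 and 192 CPM in the control libraries, with mutant library 2 inside the control range, and a log2 fold change of 0.92 (edgeR adjusted p = 0.194, SE 0.34). Gria4 overlapped as well (log2 fold change 0.58). With each library left out in turn, Gria2 passed in 1 of the 6 fits, with adjusted p up to 0.167, and Gria3 in 1 of the 6 fits, with adjusted p up to 0.195. The fit that kept each call was the one without mutant library 2. Gria3 also failed the threshold in limma-voom.

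Counts divided by exon length allow subunits to be compared with each other, as CPM per kilobase. The AMPA subunits summed to 264 ± 136 CPM per kilobase in mutant nerves and 80.3 ± 6.63 in control nerves (SD, n = 3 each). Of this sum Gria2 made up 52.7, 45.5 and 51.4% in the mutant libraries, against 25.6, 24.8 and 31.9% in the control libraries, and its mean share was 49.9% ± 3.86 in mutant nerves and 27.4% ± 3.92 in control nerves. Gria1 made up 21.2, 27.1 and 20.5% in the mutant libraries, against 35.9, 40.9 and 37.04% in the control libraries. Per kilobase, Gria2 was thus the most abundant AMPA transcript of every mutant library, mutant library 2 included, and Gria1 that of every control library. The mean share of Gria4, 11.4% in mutant nerves against 23.3% in control nerves, was also lower in mutants, and that of Gria3 was 15.8% against 11.3%. Without division by length, the mean share of Gria2 was 57.0% in mutant nerves and 33.02% in control nerves, and Gria2 then also led Gria1 in control library 3 (38.0% against 34.01%), though not in control libraries 1 and 2.

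**Figure D3:**
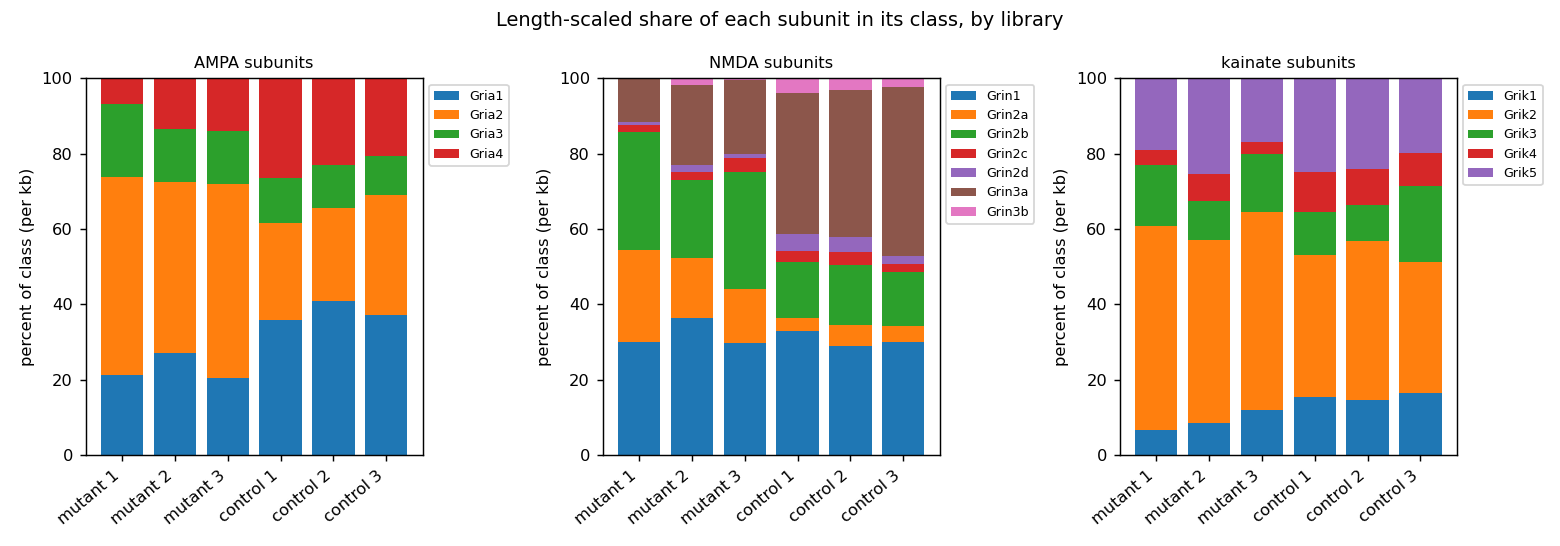
Stacked bars give the percent of each subunit in the summed length-scaled level of its class, for AMPA, NMDA and kainate subunits, with the 3 mutant libraries left of the 3 control libraries in each panel. The shares of Gria2, Grin2a and Grik2 were higher and those of Gria1 and Grin3a lower in every mutant library than in any control library.

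Of the 5 kainate subunits 1 rose and 0 fell in edgeR (2 rose in DESeq2), and their median log2 fold change was 0.78. Grik2 (chr10:49099463-49788754, minus strand), a channel-forming subunit of forebrain kainate receptors, had 237, 111 and 229 CPM in the mutant libraries, against 69.8, 71.1 and 66.7 CPM in the control libraries, with no overlap and a log2 fold change of 1.48 (edgeR adjusted p = 0.0377, SE 0.31). It was the most abundant kainate subunit per kilobase in both groups, with 39.5 ± 14.6 CPM per kilobase in mutant nerves and 14.2 ± 0.461 in control nerves, and its share of the class was 54.04, 48.7 and 52.7% in the mutant libraries, against 37.7, 42.04 and 34.6% in the control libraries. Grik5, which encodes a high-affinity partner subunit, was also above the control range in every mutant library but did not pass (log2 fold change 0.78, SE 0.23, edgeR adjusted p = 0.114). Grik1, Grik3 and Grik4 overlapped between groups, with log2 fold changes of 0.24, 1.09 and -0.14. With each library left out in turn, Grik2 passed in 1 of the 6 fits, with adjusted p up to 0.189, and the call was kept without mutant library 2.

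Of the 7 NMDA subunits 3 rose and 0 fell in edgeR (4 rose in DESeq2), and their median log2 fold change was 1.83. NMDA receptors combine the obligatory subunit Grin1 with Grin2 subunits, which set the kinetics and the block by magnesium. Grin1 (chr2:25291177-25319187, minus strand) had 166, 65.98 and 125 CPM in the mutant libraries, against 33.5, 26.7 and 30.8 CPM in the control libraries, a log2 fold change of 1.97 (edgeR adjusted p = 0.0189, SE 0.34). Counting ignored strand and exons of Grin1 overlap Grin1os and Lrrc26, so reads of these genes cannot be told apart there. Grin2a (chr16:9577710-9992533, minus strand) had 138, 29.3 and 61.8 CPM in the mutant libraries, against 3.67, 5.31 and 4.32 CPM in the control libraries, a log2 fold change of 4.11 (edgeR adjusted p = 0.00717, SE 0.55). Grin2b (chr6:135729805-136173511, minus strand) had 295, 64.5 and 223 CPM in the mutant libraries, against 26.0, 25.01 and 25.2 CPM in the control libraries, a log2 fold change of 2.93 (edgeR adjusted p = 0.0174, SE 0.49). All 3 were above the control range in every mutant library, and mutant library 2 had the lowest mutant value of each. Grin2c had no overlap either but did not pass (log2 fold change 1.83, SE 0.50, edgeR adjusted p = 0.0877). Grin2d, Grin3a and Grin3b overlapped between groups. Grin3a, a subunit that lowers calcium permeability, had 111, 67.9 and 145 CPM in the mutant libraries, against 66.9, 63.6 and 81.4 CPM in the control libraries, a log2 fold change of 0.61 (edgeR adjusted p = 0.299, SE 0.29). Exons of Grin3b overlap Tmem259, and its log2 fold change was -0.55. With each library left out in turn, Grin2a passed in 4 of the 6 fits, with adjusted p up to 0.0787, failing without control library 1 or control library 3. Grin1 passed in 1 of the 6 fits, with adjusted p up to 0.129, and Grin2b in 1 of the 6 fits, with adjusted p up to 0.129, each without mutant library 2.

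Per kilobase, Grin1 and the Grin2 subunits summed to 73.2 ± 39.8 CPM per kilobase in mutant nerves and 12.7 ± 0.7903 in control nerves, and the Grin3 subunits to 14.5 ± 4.85 CPM per kilobase in mutant nerves and 9.85 ± 1.11 in control nerves. Of the 2 Grin3 genes 0 passed in edgeR, with 0 at an unadjusted p under 0.05 and 0 in DESeq2 and limma-voom. Grin3a was on average the most abundant NMDA subunit of the control libraries and made up, of the sum of all 7, 11.4, 21.3 and 19.6% in the mutant libraries, against 37.3, 39.1 and 45.0% in the control libraries. Grin2a made up 24.3, 15.7 and 14.3% in the mutant libraries, against 3.49, 5.58 and 4.08% in the control libraries, and Grin2b 31.2, 20.8 and 30.97% in the mutant libraries, against 14.9, 15.8 and 14.3% in the control libraries. The mean share of Grin1 was 32.2% ± 3.77 in mutant nerves and 30.7% ± 2.07 in control nerves, with overlap. Within the 4 Grin2 subunits alone, Grin2a had 36.4% ± 6.99 in mutant nerves and 16.9% ± 3.003 in control nerves, while Grin2b overlapped at 55.6% ± 5.48 in mutant nerves and 58.5% ± 4.07 in control nerves (SD, n = 3 each).

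Of the 2 delta subunits, which bind cerebellins at synapses, 0 passed in edgeR, with 1 at an unadjusted p under 0.05 and 1, Grid1, called higher by DESeq2. Grid1 had 19.2, 8.24 and 28.1 CPM in the mutant libraries, against 7.03, 4.48 and 6.89 CPM in the control libraries, without overlap (log2 fold change 1.59, SE 0.45, edgeR adjusted p = 0.0959).

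Metabotropic glutamate receptors fall into group I, which couples to phospholipase C and includes Grm5, and groups II (Grm2 and Grm3) and III (Grm4, Grm6, Grm7 and Grm8), which lower cyclic AMP. Of the 7 tested, 4 rose and 0 fell in edgeR (6 rose in DESeq2). Grm5 (chr7:87584168-88135063, plus strand) had 419, 116 and 305 CPM in the mutant libraries, against 39.1, 27.1 and 32.7 CPM in the control libraries, a log2 fold change of 3.08 (edgeR adjusted p = 0.0109, SE 0.45). Grm4 (chr17:27422388-27503533, minus strand), a presynaptic receptor of group III, had 23.5, 11.9 and 28.5 CPM in the mutant libraries, against 2.48, 2.53 and 2.28 CPM in the control libraries, a log2 fold change of 3.13 (edgeR adjusted p = 0.00529, SE 0.39). Its control libraries lay close together and its lowest mutant library was far above them. Grm7 was without overlap but did not pass (log2 fold change 1.57, SE 0.38, edgeR adjusted p = 0.06197), and Grm8 overlapped (log2 fold change 1.92). Grm6, the receptor of retinal ON bipolar cells, had 0, 0 and 4 counts in the mutant libraries and 0, 5 and 0 in the control libraries.

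In group II, Grm2 rose and Grm3 did not pass. Grm2 (chr9:106644534-106656109, minus strand), a presynaptic autoreceptor, had 259, 23 and 179 counts in the mutant libraries and 1, 7 and 15 in the control libraries, or 13.97, 1.74 and 12.5 CPM in the mutant libraries, against 0.0495, 0.2903 and 0.622 CPM in the control libraries. Its log2 fold change was 4.82 (edgeR adjusted p = 0.0322, SE 0.95), and it passed the low count filter only through the mutant libraries. Grm3, the metabotropic receptor of astrocytes, had 183, 175 and 103 CPM in the mutant libraries, against 131, 139 and 106 CPM in the control libraries, with overlap and a log2 fold change of 0.29 (edgeR adjusted p = 0.605, SE 0.27). Per kilobase Grm3 was the most abundant metabotropic receptor on average in both groups, with 43.4 ± 12.4 CPM per kilobase in mutant nerves and 35.5 ± 4.83 in control nerves. Its share of the class was 35.02, 63.2 and 26.9% in the mutant libraries, against 74.4, 77.6 and 70.2% in the control libraries, while that of Grm5 was 33.3, 17.4 and 33.01% in the mutant libraries, against 9.21, 6.28 and 8.97% in the control libraries. Per kilobase the shares of Grm3 and Grm5 were thus nearer to each other in mutant libraries 1 and 3 than in mutant library 2 and the controls, where Grm3 dominated. Per kilobase Grm5 led Grm3 in mutant library 3 but not in mutant library 1, and without division by length it led in both. Its share of counts was then 50.9, 31.9 and 49.2% in the mutant libraries, against 18.7, 13.2 and 18.1% in the control libraries. That of Grm3 was 22.2, 47.99 and 16.6% in the mutant libraries, against 62.7, 67.7 and 58.8% in the control libraries. Of the 10 astrocyte markers 0 passed in edgeR, with 4 at an unadjusted p under 0.05, 1 called higher and 2 lower by DESeq2, and their sum was 5528 to 6541 CPM in the mutant libraries, against 5262 to 5565 CPM in the control libraries. Slc1a2, a glutamate transporter of astrocytes, had the highest level of them in every library, and the other 9, set apart after the values were seen, summed to 1675, 3328 and 1545 CPM in the mutant libraries, against 3348, 3616 and 3448 CPM in the control libraries. The median log2 fold change of the 10 was -0.53, with 7 negative. With each library left out in turn, Grm4 passed in 5 of the 6 fits, with adjusted p up to 0.0587, failing without control library 1. Grm5 passed in 3 of the 6 fits, with adjusted p up to 0.0834, failing without any 1 of the control libraries. Grm2 passed in 1 of the 6 fits, with adjusted p up to 0.168, the one without mutant library 2. Grm2 also failed the threshold in limma-voom.

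RefSeq (GRCm38.p6) gives start sites for 32 of the 47 subunits, in 39 windows of 250 bases upstream of the start, and 7 of the 15 that rose are among them. The windows of Grin1 and Grm2 are printed because they hold matches that few or no other subunits share. Capitals mark matches, on either strand, to the letters searched.
Grin1 chr2:25319188-25319437 minus strand: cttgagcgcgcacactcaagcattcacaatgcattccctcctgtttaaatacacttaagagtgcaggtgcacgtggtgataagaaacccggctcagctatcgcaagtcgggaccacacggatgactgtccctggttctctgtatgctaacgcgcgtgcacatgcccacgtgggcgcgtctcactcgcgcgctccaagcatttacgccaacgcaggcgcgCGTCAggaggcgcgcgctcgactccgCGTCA
Grm2 chr9:106656110-106656359 minus strand: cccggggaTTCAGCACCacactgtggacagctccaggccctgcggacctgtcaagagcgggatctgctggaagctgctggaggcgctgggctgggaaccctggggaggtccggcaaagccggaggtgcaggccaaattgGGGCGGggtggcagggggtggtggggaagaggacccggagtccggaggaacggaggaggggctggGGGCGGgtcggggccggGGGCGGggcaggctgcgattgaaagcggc
The core of the cyclic AMP response element, TGACG, occurred in 3 of the 39 windows (7.69%; 17.8% of all 32851 windows), 2 times in that of Grin1 and also in those of Gabrr1 and Grm8. The full element, TGACGTCA, which contains the core, occurred in 0 of 39 (1.55% of all windows), and the Egr site GCGTGGGCG in 0 of 39 (0.536%). Part of the site of the neuronal repressor REST, TTCAGCACC, occurred in 1, that of Grm2 (2.56%; 0.301% of all windows).

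Of the 14 tested GABA-A subunits 5 rose and 0 fell in edgeR (8 rose in DESeq2), and their median log2 fold change was 1.49. Gabra4 (chr5:71569734-71658308, minus strand), an alpha subunit of striatal and thalamic receptors, had 125, 34.1 and 78.2 CPM in the mutant libraries, against 14.2, 10.4 and 10.7 CPM in the control libraries, a log2 fold change of 2.75 (edgeR adjusted p = 0.0155, SE 0.44). Gabrd, its partner in extrasynaptic receptors (chr4:155384979-155398069, minus strand), had 613, 191 and 55 counts in the mutant libraries and 3, 17 and 19 in the control libraries, or 33.1, 14.4 and 3.84 CPM in the mutant libraries, against 0.149, 0.705 and 0.788 CPM in the control libraries. Its log2 fold change was 4.93 (edgeR adjusted p = 0.0215, SE 0.86), and it passed the low count filter only through the mutant libraries. In contrast to the other subunits that rose, its lowest mutant value was in mutant library 3. Gabrb2 (chr11:42419757-42632591, plus strand) had 322, 79.2 and 309 CPM in the mutant libraries, against 46.6, 35.4 and 46.5 CPM in the control libraries, a log2 fold change of 2.47 (edgeR adjusted p = 0.0313, SE 0.48). It encodes a beta subunit, which forms the GABA binding site together with an alpha subunit, and its groups did not overlap. Gabrg3 (chr7:56724242-57386871, minus strand) had 49.3, 33.4 and 68.5 CPM in the mutant libraries, against 16.2, 16.6 and 23.98 CPM in the control libraries, a log2 fold change of 1.41 (edgeR adjusted p = 0.0489, SE 0.32). This call was the nearest to the threshold and was lost with upper quartile scaling, with total counts, with Rn45s removed and in limma-voom.

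With each library left out in turn, Gabra4 passed in 2 of the 6 fits, with adjusted p up to 0.103, without mutant library 1 or 2. Gabrd passed in 2 of the 6 fits, with adjusted p up to 0.127, without mutant library 2 or 3. Gabrb2 and Gabrg3 each passed in 1, without mutant library 2, with adjusted p up to 0.169 and 0.229 otherwise. Gabrd failed the threshold in limma-voom. Gabrb1 was above the control range in every mutant library without passing, with a log2 fold change of 0.59 (edgeR adjusted p = 0.238, SE 0.25). Gabra2, Gabra3, Gabra5 and Gabrg1 had log2 fold changes of 0.50 (Gabrg1) to 1.64 (Gabra5) and did not pass. Exons of Gabra5 overlap Gm9962. The epsilon subunit Gabre had 2.59, 2.95 and 8.86 CPM in the mutant libraries, against 5.795, 5.81 and 11.1 CPM in the control libraries, a log2 fold change of -0.66 (edgeR adjusted p = 0.5501, SE 0.54). The theta subunit Gabrq had 20.9, 15.7 and 34.6 CPM in the mutant libraries, against 27.7, 29.8 and 57.7 CPM in the control libraries, a log2 fold change of -0.69 (edgeR adjusted p = 0.365, SE 0.38). Both overlapped between groups. Gabra6, the alpha subunit of cerebellar granule cells, had 2, 6 and 12 counts in the mutant libraries and 0, 9 and 0 in the control libraries, and Gabrp had 0, 0 and 0 counts in the mutant libraries and 0, 1 and 2 in the control libraries.

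**Figure D4:**
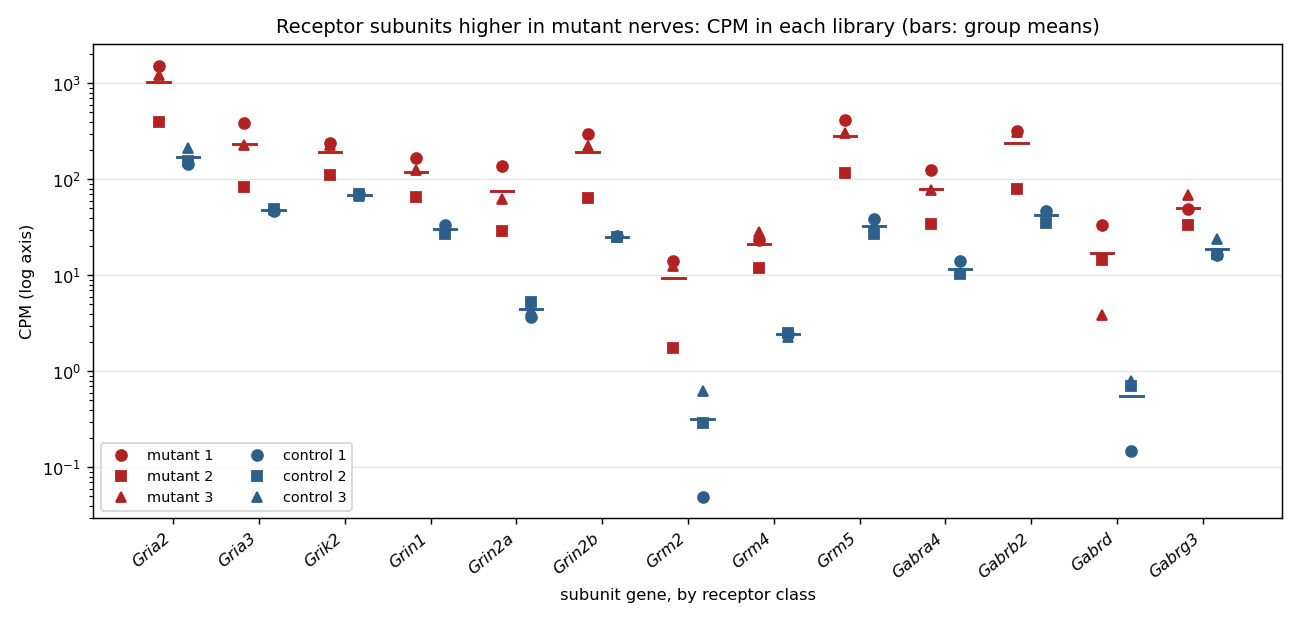
CPM on a log axis of 13 of the 15 subunits that rose, with one mark per library, mutant libraries in red left of control libraries in blue, and bars for the group means. In every subunit shown all 3 mutant marks lie above all 3 control marks, and mutant library 2 (squares) is the lowest mutant mark in each but Gabrd.

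Per kilobase, the GABA-A subunits summed to 349.9 ± 169 CPM per kilobase in mutant nerves and 115 ± 22.2 in control nerves (SD, n = 3 each). Among beta subunits, Gabrb1 made up 12.9, 22.6 and 10.1% in the mutant libraries, against 33.7, 35.7 and 28.6% in the control libraries. Among alpha subunits, Gabra4 made up 19.3, 22.4 and 13.4% in the mutant libraries, against 11.2, 9.83 and 6.49% in the control libraries, without overlap. The mean gamma share of Gabrg1, a subunit found in glia, was 19.2% ± 2.51 in mutant nerves and 30.1% ± 2.51 in control nerves.

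Most GABA-A genes lie in chromosomal clusters, and the values of neighbours were set side by side. On chromosome 5 (chr5:70751047-72137244), Gabra4 rose with a log2 fold change of 2.75, while Gabrg1, Gabra2 and Gabrb1 of the same cluster had 0.50, 1.49 and 0.59 and did not pass. In the X cluster (chrX:72257432-72842602), Gabra3 had a log2 fold change of 1.497, Gabre -0.66 and Gabrq -0.69, and none passed. In the chromosome 7 cluster Gabrg3 and Gabra5 had log2 fold changes of 1.41 (SE 0.32) and 1.64 (SE 0.73). Gabrg3 passed without overlap between groups. Gabra5 did not pass, and in mutant library 2 it was below every control library (4.84 CPM, against at least 8.25 CPM in the control libraries). The differences between neighbours were not tested, and not every cluster is described here.

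The rho subunits Gabrr1, Gabrr2 and Gabrr3, known best from the retina, form GABA-gated chloride channels of their own. Gabrr2 (chr4:33063112-33095865, plus strand) had 11, 25 and 5 counts in the mutant libraries and 85, 135 and 107 in the control libraries, or 0.594, 1.89 and 0.349 CPM in the mutant libraries, against 4.21, 5.599 and 4.44 CPM in the control libraries. It passed the low count filter only through the control libraries, so its tests are a description. It was the only tested subunit with every mutant library below every control library, with a log2 fold change of -2.34 (edgeR adjusted p = 0.0892, SE 0.64), and it passed in DESeq2 (adjusted p = 0.00423) and, in edgeR, without mutant library 2 (log2 fold change -3.29, adjusted p = 0.00145). Its neighbour Gabrr1 had 0.594, 0.453 and 0.558 CPM in the mutant libraries, against 0.347, 0.954 and 0.249 CPM in the control libraries, close to the filter, and Gabrr3 had 1, 0 and 0 counts in the mutant libraries and 0, 1 and 2 in the control libraries. In edgeR 0 of the 2 tested rho genes passed, with 1 at an unadjusted p under 0.05. Marker lists differed in whether every mutant library was below the controls, as it was for Gabrr2. The 8 endothelial markers summed to 119.7 to 228 CPM in the mutant libraries, against 304 to 328 CPM in the control libraries, and 8 meningeal fibroblast markers to 391.8 to 1712 CPM in the mutant libraries, against 2203 to 2927 CPM in the control libraries. Pericyte and retinal sums were also below every control library in every mutant library. The sums of mature oligodendrocyte, precursor and microglia markers were lower in mutant libraries 1 and 3. In mutant library 2 they were above every control library (33820, 2497 and 717 CPM, against at most 26700, 2421 and 712 CPM in the control libraries). Bcas1 made the largest part of that precursor sum. It had 252, 1357 and 111 CPM in the mutant libraries, against 885, 1203 and 1014 CPM in the control libraries. The order of the precursor sums thus rests on this gene. Of the endothelial markers 1, Kdr, fell (log2 fold change -1.54, SE 0.33, edgeR adjusted p = 0.0418), and of the fibroblast markers 0 passed in edgeR, with 8 at an unadjusted p under 0.05 and 7 called lower by DESeq2. Their part in the value of Gabrr2 was not tested.

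The windows upstream of Gabra4, which rose, and Gabrr2, with the lowest fold change, are printed for comparison, with the same letters searched and matches in capitals.
Gabra4 chr5:71658309-71658558 minus strand: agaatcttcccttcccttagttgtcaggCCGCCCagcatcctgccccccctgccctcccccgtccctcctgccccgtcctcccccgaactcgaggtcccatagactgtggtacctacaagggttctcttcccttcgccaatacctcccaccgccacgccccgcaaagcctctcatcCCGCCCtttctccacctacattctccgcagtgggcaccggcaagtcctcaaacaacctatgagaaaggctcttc
Gabrr2 chr4:33062862-33063111 plus strand: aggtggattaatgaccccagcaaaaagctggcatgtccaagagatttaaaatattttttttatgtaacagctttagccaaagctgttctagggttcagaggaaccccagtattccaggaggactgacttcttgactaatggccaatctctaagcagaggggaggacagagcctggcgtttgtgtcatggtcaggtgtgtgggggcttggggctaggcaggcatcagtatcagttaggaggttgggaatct
The GC box, GGGCGG, occurred 2 times in the window of Gabra4 and not in that of Gabrr2. It was found in 18 of the 39 subunit windows (46.2%), beside 32.7% of all windows, and the TATA box, TATAAA, in 4 (10.3%, beside 12.4%). The median GC content was 58.8% in the subunit windows and 52.4% in all windows. Such matches describe letters and not bound sites.

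GABA-B receptors need both Gabbr1, which binds GABA, and Gabbr2, which couples to the G protein. Gabbr1 had 386, 221 and 372 CPM in the mutant libraries, against 205, 169 and 189.8 CPM in the control libraries, without overlap but with a log2 fold change of 0.80 (edgeR adjusted p = 0.157, SE 0.27). Gabbr2 overlapped (log2 fold change 0.90, SE 0.40, edgeR adjusted p = 0.265). In edgeR 0 of the pair passed, with 1 at an unadjusted p under 0.05 and 0 in DESeq2 and limma-voom. Gabbr1 was the most abundant of the 47 subunits per kilobase in control nerves, with 72.8 ± 20.3 CPM per kilobase in mutant nerves and 41.9 ± 3.99 in control nerves, and made up 84.1% of the pair in mutant nerves and 84.2% in control nerves. In control nerves Grm3 averaged 35.5 ± 4.83, Gria1 30.5 ± 3.57 and Gria2 22.2 ± 4.84 CPM per kilobase, so that Gabbr1 and Grm3, and Grm3 and Gria1, lay within their spread of each other. In mutant nerves Gria2 was the most abundant of the 47, at 135 ± 75.6 CPM per kilobase, with a spread that reached the mean of Gabbr1.

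**Figure D5:**
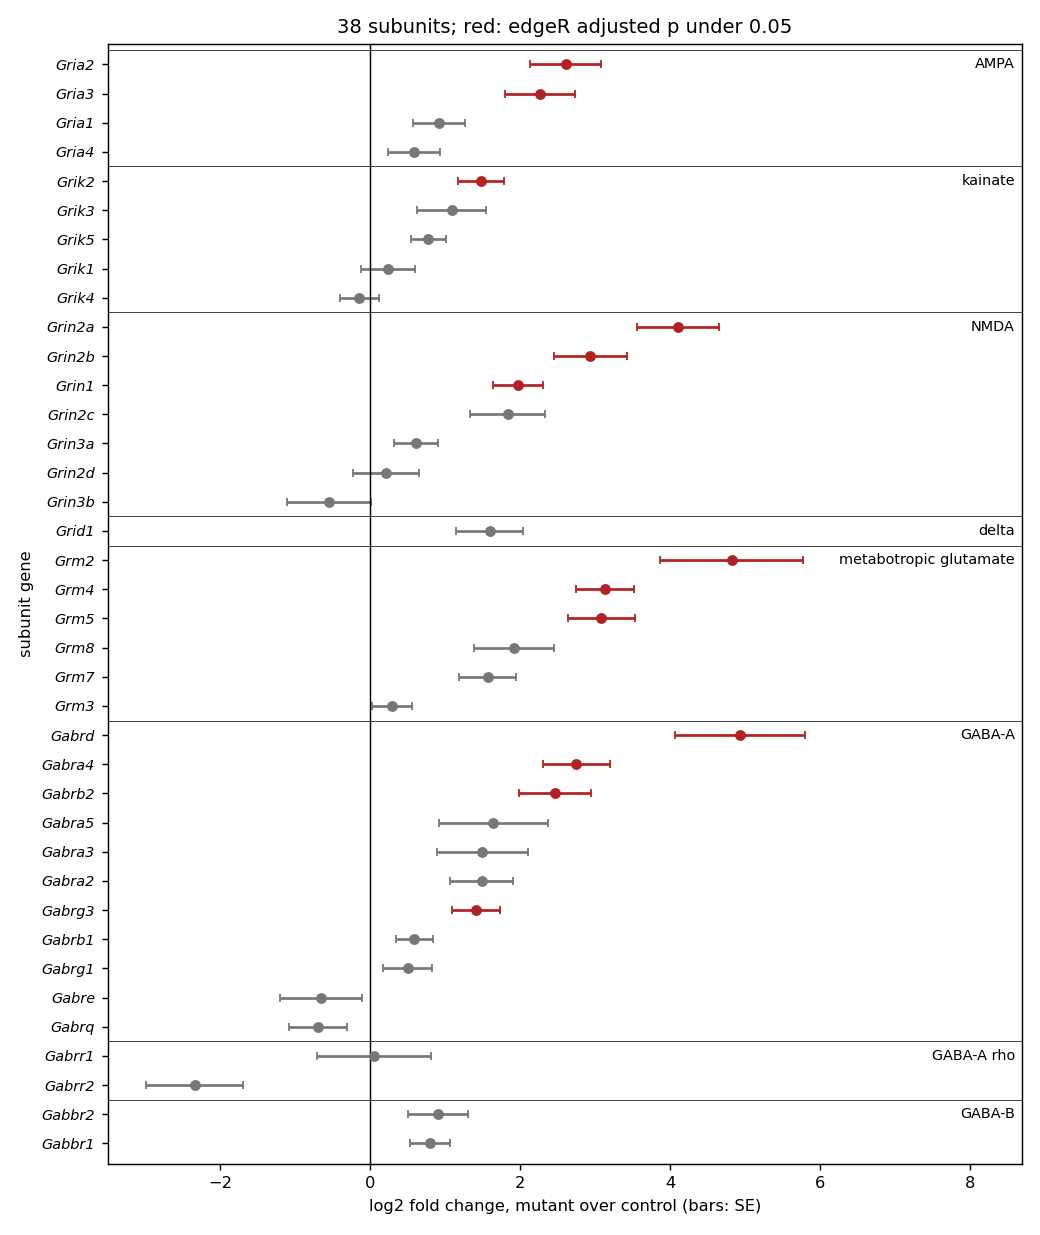
Log2 fold change, mutant over control, of 38 tested subunits by receptor class, with bars of 1 SE and red marks for edgeR adjusted p under 0.05. The 13 red marks lie between 1.41 (Gabrg3) and 4.93 (Gabrd), and the lowest value is that of Gabrr2 at -2.34.

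Genes that act with the receptors were followed as lists. Of 15 AMPA receptor auxiliary subunits 4 rose and 0 fell in edgeR, with 10 at an unadjusted p under 0.05 and 0 lower in DESeq2. They were Gsg1l (log2 fold change 3.50, SE 0.43, edgeR adjusted p = 0.00529), Cacng3 (2.92, SE 0.49, edgeR adjusted p = 0.0175), Cacng8 (2.80, SE 0.52, edgeR adjusted p = 0.0256) and Shisa7 (2.15, SE 0.42, edgeR adjusted p = 0.0313). Cacng3 and Cacng8 encode TARPs, which carry AMPA receptors to the synapse. Cacng8 had 5.34, 4.31 and 3.07 CPM in the mutant libraries, against 0.693, 0.705 and 0.415 CPM in the control libraries. It passed the low count filter only through the mutant libraries, so its p-values are given as a description. Of 10 kainate, delta and NMDA auxiliary and ligand genes 1 rose, Neto1, a partner of kainate receptors, with 214, 56.8 and 163 CPM in the mutant libraries, against 17.8, 16.3 and 27.1 CPM in the control libraries (log2 fold change 2.82, SE 0.47, edgeR adjusted p = 0.0174). Of 16 genes of GABA receptor clustering and trafficking 3 rose and 0 fell, with Shisa7 again and Plcl2 (2.12, SE 0.38, edgeR adjusted p = 0.0232) among those that rose. In this list 7 genes had an unadjusted p under 0.05, and DESeq2 called 5 higher and 1 lower. With 1 library left out, 0 to 11 auxiliary AMPA subunits, 0 to 4 of the second list and 0 to 7 of the third rose. The highest counts were without mutant library 2, and none rose without control library 1. In the fit without mutant library 2, 3 genes of the third list fell and none of the other lists did. Among all genes tested in that fit 13.2% were higher and 13.8% lower. The medians of these lists were 1.58, 0.43 and 0.47 on the log2 scale, beside -0.0017 over all genes tested.

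Among genes that make or move the transmitters, few passed. Of 10 genes of GABA synthesis, transport and breakdown 2 rose, the glutamate decarboxylases Gad1 (log2 fold change 2.69, SE 0.53, edgeR adjusted p = 0.03296) and Gad2 (2.12, SE 0.43, edgeR adjusted p = 0.03496). In this list 5 fold changes were positive and 5 negative, and 6 genes had an unadjusted p under 0.05. DESeq2 called 3 higher and 2 lower, and limma-voom 1 higher and 1 lower. Of 16 genes of glutamate transport and metabolism 0 passed in edgeR, with 7 at an unadjusted p under 0.05, and 4 higher and 1 lower in DESeq2. The smallest p there was that of the vesicular transporter Slc17a7, with 139.6, 0.0756 and 21.6 CPM in the mutant libraries, against 0.644, 0.2903 and 0.249 CPM in the control libraries. It was above the control range in mutant libraries 1 and 3 and below all controls in mutant library 2. Of 6 glycine receptor and transporter genes 0 passed in edgeR, with 0 at an unadjusted p under 0.05 and 0 in DESeq2. Of the 2 chloride transporters 0 passed in edgeR, with 1 at an unadjusted p under 0.05 and 1 in DESeq2, the neuronal exporter Slc12a5 (log2 fold change 1.86, SE 0.43, edgeR adjusted p = 0.0518). Without mutant library 2, 5 genes of GABA synthesis, transport and breakdown rose and 2 fell. The same counts, 5 and 2, held for genes of glutamate transport and metabolism. Of the glycine genes 1 rose and 1 fell in that fit, and of the chloride transporters 1 rose and 1 fell. Among all genes tested in that fit 13.2% were higher and 13.8% lower. With any other library left out, 0 genes of these 4 lists passed in edgeR. Median log2 fold changes were 0.27, 0.07, 0.15 and 0.58 for these 4 lists.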

How the data were processed

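The authors deposited 1 table of raw counts per gene for each of the 6 libraries. Per the labels' protocols, total RNA was amplified (NuGEN Ovation v2) and made into Nextera XT libraries. The counts are of read pairs over exons without regard to strand, made with featureCounts 1.4.6-p4 on the UCSC mm10 genes, per the file headers. TopHat and DESeq2 are named, without versions, in the submitters' processing notes. Amplification copies are not independent molecules, so counts understate the error. The deposited exon length per gene was used to compute CPM per kilobase.

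Groups came from titles and genotypes. Replicate numbers follow accession order and pair no libraries. All pairs of libraries differed beyond sampling noise (chi-square per degree of freedom at least 45.6). The test was edgeR 4.0.16 (R 4.3.3), with TMM scaling, filterByExpr (minimum count 10) and quasi-likelihood F tests. Genes with a Benjamini-Hochberg adjusted p under 0.05 over 16315 genes passed. The SE is the size of the log2 fold change divided by the square root of F. Total counts were 13555756 to 23662698, and the common biological coefficient of variation was 0.362. The script was tested on simulated counts.

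The subunits and the 19 lists of partner and marker genes were chosen with earlier results of these data known, so no list was tested as a set. Values per library are given for subunits that passed, for the most abundant per kilobase of each class and group, and for the 3 with the lowest fold change, and those of Grid1 and Gabrr1 were added after they were seen. From each list up to 4 genes that passed were named, or else the 1 with the smallest p. Outside this rule, Pvalb, Sst, Vip, Bcas1 and Slc1a2 were named after their values were seen. Some genes that these rules take are not reported here by name. Alternatives were other scalings, DESeq2 1.42.0, limma-voom (limma 3.58.1), other filters, Rn45s removed, an Xist covariate and leaving out each library.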

Additional observations from a re-analysis of the deposited data

How the results depend on the processing

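The 15 subunits that rose became 14 to 17 under other scalings, other filters or with Rn45s removed, 11 in limma-voom, and 23, with 1 that fell, in DESeq2, where 1645 genes were called in all against 537. Without a low count filter 870 genes were called. With the Xist covariate 0 genes and 0 subunits passed in edgeR (1299 genes and 22 subunits at an unadjusted p under 0.05), with control library 2 the only control library high in Xist. With 1 library left out, 51 to 4551 genes passed, 0 to 33 subunits rose and 0 to 1 fell, the highest without mutant library 2 and the lowest without control library 1. The cause was not tested. The median log2 fold change of tested subunits stayed at 1.13 to 1.80. Directions changed for Gabrr1 (-0.024 with upper quartile scaling, -0.79 with the Xist covariate, -0.16 without control library 1, -0.29 without control library 3 and -0.032 without mutant library 1, up to 0.85 without control library 2), for Grin2d (-0.028 without control library 3, up to 0.48 without control library 1) and for Grik1 (-0.22 without mutant library 3, up to 0.52 without mutant library 2), none of which passed. Without division by length, mutant shares were 57.0% for Gria2 among AMPA subunits and 24.1% for Grin1 among NMDA subunits, against 49.9% and 32.2%. As settings chosen after seeing the data, the log2 ratio of mutant to control mean sums was -0.67 for astrocyte markers without Slc1a2 against 0.19 with it, and 0.60 for interneuron markers without Gad1 and Gad2 against 1.94 with them. No paired analysis was possible because the labels carry no replicate numbers. Depth limits Gabra6, Gabrp, Gabrr3 and Grm6, with at most 12 counts in a library, where a difference was not detectable.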

Other observations

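Markers of glia and other cells of the nerve, some of whose sums are also set beside Gabrr2 and Grm3 above, had these values. Of the 10 oligodendrocyte precursor markers 0 passed in edgeR, with 2 at an unadjusted p under 0.05 and 0 in DESeq2, and they summed to 1184 to 2497 CPM in the mutant libraries, against 1998 to 2421 CPM in the control libraries. Of 10 mature oligodendrocyte markers 0 passed in edgeR, with 1 at an unadjusted p under 0.05 and 1 lower in DESeq2. Microglia markers summed to 310.1 to 717 CPM in the mutant libraries, against 558 to 712 CPM in the control libraries, and pericyte and smooth muscle markers to 91.5 to 207 CPM in the mutant libraries, against 245 to 266 CPM in the control libraries. Of these 8 and 7 markers 0 passed in edgeR, with 1 and 4 at an unadjusted p under 0.05 and 0 and 2 lower in DESeq2. Without mutant library 2, where 13.8% of all genes tested fell, markers of every one of these cell types fell: 10 of 10 of mature oligodendrocytes, 8 of 10 of precursors, 5 of 10 of astrocytes (1 rose), 4 of 8 of microglia, 7 of 8 of endothelium, 6 of 7 of pericytes and smooth muscle and 8 of 8 of meningeal fibroblasts. The smallest p of each list was that of Tbr1 with a log2 fold change of 5.82 and an edgeR adjusted p of 0.0659 (cortical excitatory neurons), Rbpms with a log2 fold change of -0.79 and an edgeR adjusted p of 0.222 (retina) and Cldn11 with a log2 fold change of -1.57 and an edgeR adjusted p of 0.155 (mature oligodendrocytes). It was that of Pdgfra with a log2 fold change of -0.68 and an edgeR adjusted p of 0.201 (precursors) and Gjb6 with a log2 fold change of -1.37 and an edgeR adjusted p of 0.0501 (astrocytes). In the remaining lists it was that of Ctss with a log2 fold change of -0.67 and an edgeR adjusted p of 0.206 (microglia), Acta2 with a log2 fold change of -1.70 and an edgeR adjusted p of 0.0752 (pericytes and smooth muscle), Mgp with a log2 fold change of -1.77 and an edgeR adjusted p of 0.08204 (meningeal fibroblasts) and Slc6a9 with a log2 fold change of -0.96 and an edgeR adjusted p of 0.299 (glycine genes). Tbr1 passed the low count filter only through the mutant libraries, so its p-value is given as a description.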
